A study of Mus musculus with 6 samples.

Results

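The sarcomere and terminal muscle differentiation genes are 37 genes chosen by name, and the rows carrying those symbols were read from a deposited count table of 55494 rows. All 37 were in the table. After a filter on low counts 33 of them were tested, among 16097 genes in all, and Mymx, Myh8, Tnnc2 and Smpx were too low to test. The counts come from 6 libraries of poly(A) RNA from primary muscle stem cells (MuSCs) of wild-type mice, kept for 2 days in culture. In 3 of them, called EET 1 to EET 3, the cells had received 11,12-EET, one of the epoxyeicosatrienoic acids, lipid mediators formed from arachidonic acid by cytochrome P450 enzymes. The other 3 are controls cultured without it, called control 1 to control 3. The labels give the treatment, its length and the genotype, which all 6 share. The sources used here do not give the dose, the vehicle, the culture medium, or the age, sex and number of the mice. No label ties the libraries to animals or dishes, so every p-value here reflects how far these 6 libraries scatter, and that scatter may be only technical. The comparison asks whether the genes that a muscle stem cell turns on when it becomes a contractile fibre differed in level between cultures with and without it.

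In a resting muscle the stem cells lie beside the fibres and carry the transcription factor Pax7. Once activated they divide as myoblasts under Myod1, and on leaving the cell cycle they switch on Myog, fuse through the membrane proteins Myomaker (Mymk) and Myomixer (Mymx), and build sarcomeres. A sarcomere is a lattice of thick filaments of myosin heavy and light chains and thin filaments of actin, which alpha-actinin anchors at the Z-disc and troponin makes responsive to calcium. Titin and nebulin run along these filaments, the ryanodine receptor releases calcium from the sarcoplasmic reticulum, and the calcium pump returns it. The acetylcholine receptor, through which the motor nerve excites the fibre, is assembled from alpha, beta, delta and, in embryonic muscle, gamma subunits.

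The members covered a wide range of levels. Levels are given as CPM, which are counts scaled to the size of the library, here with TMM factors, and 3 counts in a library correspond to 0.0788 to 0.0960 CPM. In the controls 8 members had a mean over 25 CPM, 3 lay between 5 and 25 CPM, 13 between 1 and 5 CPM, and 13 at 1 CPM or under. Per kilobase of the longest coding mRNA, which allows genes to be compared with each other, Chrna1 was the most abundant member in the controls at 146 ± 1.35 CPM per kb (mean ± SD, n = 3). Chrnb1 followed at 44.1 ± 1.13, Tnnt2 at 28.0 ± 3.44, Acta1 at 22.5 ± 3.65, Actn3 at 12.7 ± 1.06 and Chrnd at 9.62 ± 0.659 CPM per kb. Of these neighbours in the order, Tnnt2 and Acta1 lay within 2 SD of each other. Ttn, with an mRNA of 106824 bases, was at 0.475 ± 0.0923 CPM per kb, and the adult fast myosin heavy chain Myh1 at 0.184 ± 0.0186 CPM per kb. Taken against markers of the stem cell and the myoblast, Myod1 was at 1025, 944 and 962 CPM and Pax7 at 109, 116 and 118 CPM in the controls, while Myog, which marks the committed myocyte, was at 0.893, 0.482 and 0.668 CPM. Most members were thus far below Myod1 in level, and the label of terminal differentiation names what the genes are known for. In bulk RNA a smaller number of differentiated cells and less RNA per cell cannot be told apart.

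**Figure D1:**
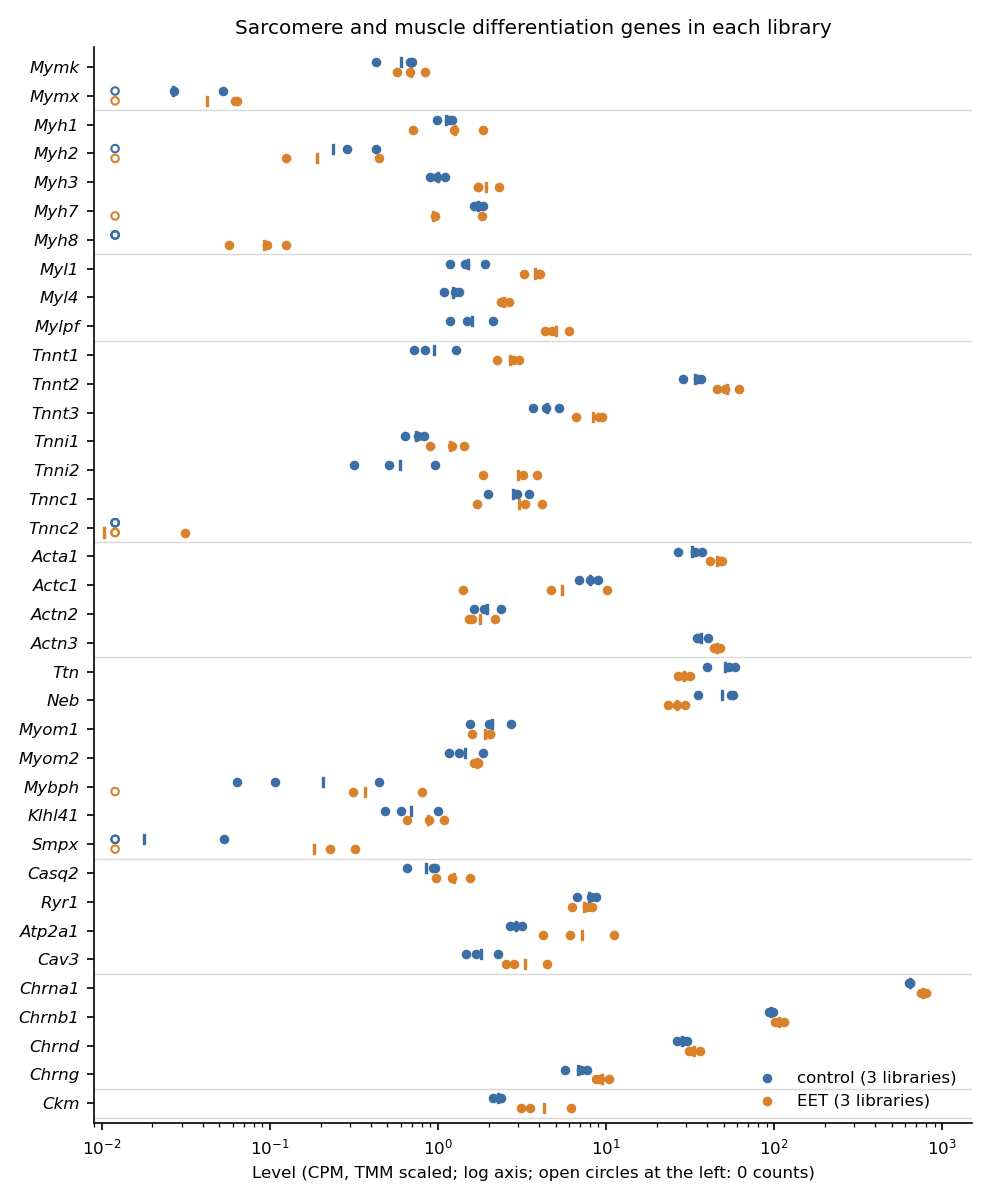
Level of each of the 37 members in each library, in TMM-scaled CPM on a log axis, with control libraries in blue and EET libraries in orange. Short vertical bars are group means, open circles at the left edge are libraries with 0 counts, and grey lines divide the roles. The acetylcholine receptor subunit Chrna1 lies far to the right of every other member, and the members at 1 CPM or under in the controls number 13.

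One treated library stood apart and touches several results. EET 2 all but lacked the mRNAs of heart muscle that the other 5 libraries carried at a low level. Myh6, the alpha heavy chain of the heart, was at 9.01, 10.6 and 10.7 CPM in control 1 to 3 and 11.9, 0.0320 and 6.40 CPM in EET 1 to 3. Myl2, the ventricular regulatory light chain, was at 5.47, 6.16 and 6.71 CPM in control 1 to 3 and 7.30, 0 and 4.60 CPM in EET 1 to 3. The 6 heart markers examined summed to 12.9 to 15.0 CPM in the controls and to 17.0, 0.0960 and 9.44 CPM in EET 1 to 3. Of these, Myl7 had no count in any library, Nkx2-5 was at 0 in 4 libraries, Nppa and Mybpc3 were at 0 in EET 2, and the adjusted p of the 4 that could be tested ran from 0.513 to 0.667. Of the 9 markers of mature fast fibres examined, Myh4, Mybpc2 and the members Myh1, Myh2 and Ckm were highest in EET 2. Myh4, the heavy chain of the fastest fibres, was at 2.05, 2.84 and 1.62 CPM in control 1 to 3 and 4.53, 19.1 and 4.50 CPM in EET 1 to 3. Mybpc2, the fast myosin-binding protein C, was at 0.998, 0.589 and 0.827 CPM in control 1 to 3 and 0.798, 4.06 and 1.06 CPM in EET 1 to 3. The other markers on that list did not peak in EET 2. Pvalb and Casq1 were highest in EET 1 and Actn3 in EET 3. Mb was at 0.946, 1.02 and 0.70 CPM in control 1 to 3 and 1.37, 0.256 and 0.715 CPM in EET 1 to 3, lowest in EET 2. For Myh1, Myh7, Tnnc1, Tnni2, Actc1, Atp2a1 and Ckm, whose levels were highest or lowest in EET 2, values without that library are given beside the others. They are not the only members with an extreme there. Mymk, Myl1, Myl4, Tnnt3, Acta1 and Chrnb1, among others, were also highest in EET 2, and Ttn was lowest.

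**Figure D2:**
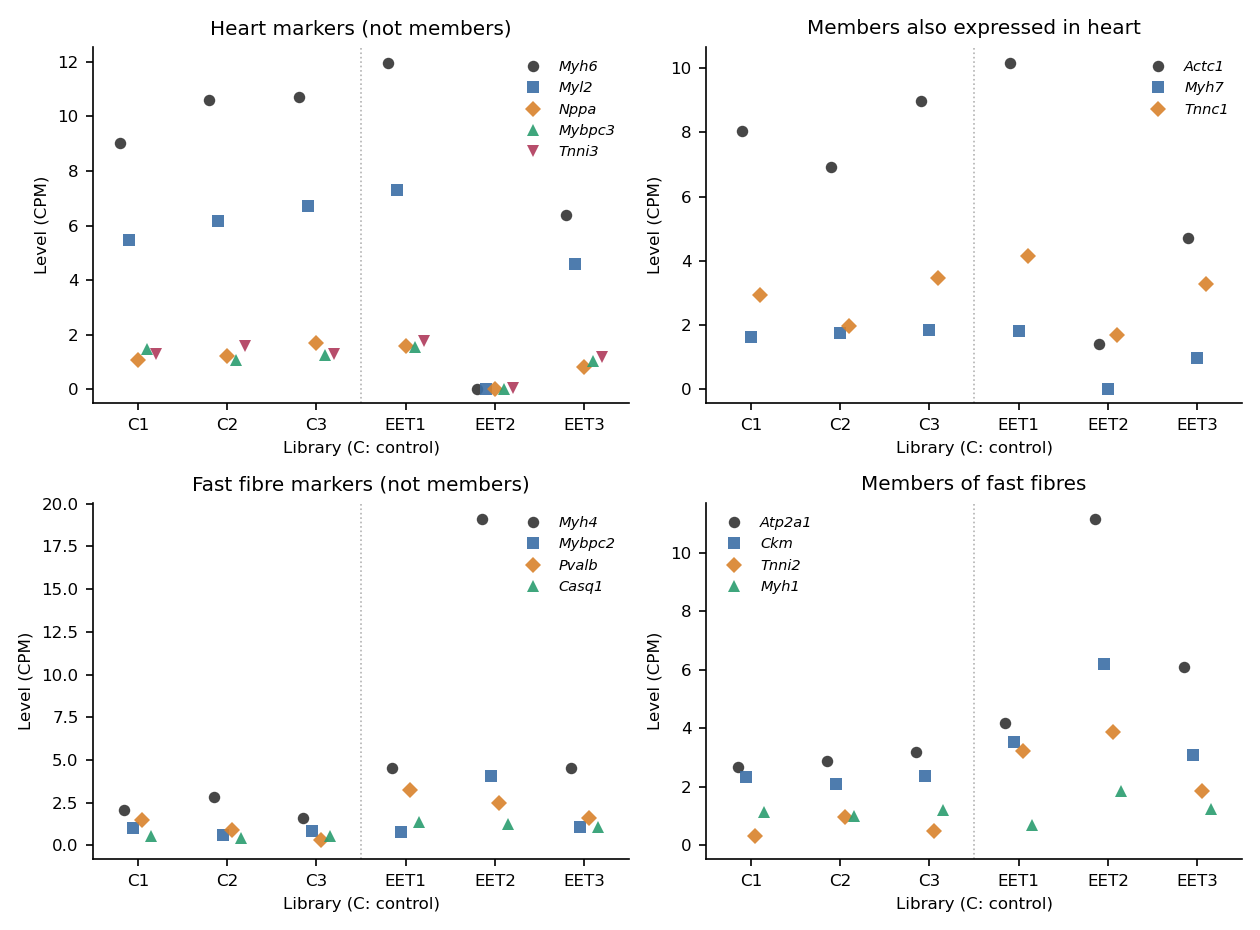
Level in CPM (linear axis) in each of the 6 libraries (C1 to C3 controls, EET1 to EET3 treated), 1 point per gene and library. The panels show heart markers, some members also expressed in heart (Actc1, Myh7 and Tnnc1), fast fibre markers and some members of fast fibres. In EET2 the heart markers lie at or near 0 with Actc1 and Myh7 low beside them, and Myh4 and Atp2a1 have their highest points.

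E-boxes, the sites that Myod1 and Myog bind, were looked for in front of the members because several of the best measured ones are textbook targets of these factors. RefSeq promoter windows of GRCm38.p6, running from 250 bases before to 50 bases after a start site, were matched by symbol to 29 of the 37 members. The motif CANNTG, searched on both strands, was in a window of 24 of the 29, which is 82.8%, against 75% of the 27025 genes with a window and 72.3% of the 32851 windows. Its form CAGCTG, which is contained in the first, was in a window of 12 of the 29 members (41.4%), against 18.3% of all genes and 16.3% of windows. The SRF motif called CArG was in a window of 3 members (10.3%), Acta1, Actc1 and Myom1, against 1.81% of genes and 1.63% of windows. The MEF2 motif was in a window of 5 (17.2%), against 3.7% of genes and 3.19% of windows, and the MCAT letters CATTCC, in either strand, in a window of 10 (34.5%), against 16.6% of genes and 14.7% of windows. These matches are a description of letters and not of binding. The 250 bases before the start site are shown for 4 members called in both fits described below, with the E-boxes in capitals, and for Mylpf, a member called in 1 of the fits. For Chrna1, the receptor's alpha subunit, the stretch is chr2:73580339-73580588 on the minus strand, and its E-boxes begin 92, 73 and 44 bases before the start. For Chrng, the gamma subunit, it is chr1:87205561-87205810 on the plus strand, with E-boxes at 155, 132 and 75 bases. For Myh3, the embryonic myosin heavy chain, it is chr11:67078050-67078299 on the plus strand, with 1 E-box at 191 bases. For Atp2a1, the fast calcium pump, it is chr7:126463074-126463323 on the minus strand, with 1 at 55 bases. For Mylpf, the fast regulatory light chain, it is chr7:127211358-127211607 on the plus strand, with 1 at 51 bases.
Chrna1: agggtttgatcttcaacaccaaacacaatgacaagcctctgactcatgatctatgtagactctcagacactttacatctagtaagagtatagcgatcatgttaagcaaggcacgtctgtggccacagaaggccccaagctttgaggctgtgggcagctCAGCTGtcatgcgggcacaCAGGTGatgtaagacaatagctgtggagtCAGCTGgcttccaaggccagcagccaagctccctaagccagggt
Chrng: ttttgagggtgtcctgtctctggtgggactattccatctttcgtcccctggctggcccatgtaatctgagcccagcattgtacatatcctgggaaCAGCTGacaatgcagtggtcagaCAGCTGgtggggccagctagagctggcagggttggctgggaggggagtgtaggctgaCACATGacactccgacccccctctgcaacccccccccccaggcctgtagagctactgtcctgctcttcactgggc
Myh3: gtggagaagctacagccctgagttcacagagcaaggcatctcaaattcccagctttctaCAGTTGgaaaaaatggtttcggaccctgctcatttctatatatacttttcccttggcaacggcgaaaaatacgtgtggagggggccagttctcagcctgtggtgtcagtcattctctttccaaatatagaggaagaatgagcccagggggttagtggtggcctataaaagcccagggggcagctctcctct
Atp2a1: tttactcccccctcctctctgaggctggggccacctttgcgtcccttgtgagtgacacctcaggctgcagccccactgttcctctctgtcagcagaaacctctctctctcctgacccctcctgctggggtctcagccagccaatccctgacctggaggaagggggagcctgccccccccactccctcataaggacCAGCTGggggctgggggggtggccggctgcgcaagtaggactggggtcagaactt
Mylpf: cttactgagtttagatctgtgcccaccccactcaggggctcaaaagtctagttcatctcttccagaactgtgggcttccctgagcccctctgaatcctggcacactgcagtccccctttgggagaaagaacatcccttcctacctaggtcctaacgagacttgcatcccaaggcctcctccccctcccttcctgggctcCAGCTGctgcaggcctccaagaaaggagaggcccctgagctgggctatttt
The stretches of Atp2a1 and Mylpf hold 1 CAGCTG each and those of Chrna1 and Chrng 2 each, while the E-box of Myh3 reads CAGTTG. Of the 7 members that rose in both fits 5 have a window, and CAGCTG is in that of 4 of them, Myh3 being the exception. The other members with CAGCTG in a window were Acta1, Cav3, Myl1, Mylpf and Tnnt2, called in 1 of the fits, and Klhl41, Mybph and Tnni1, called in neither. Whether the motif goes with a rise was not tested. The choice of the stretches shown was made with these matches known.

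Across the 33 members tested, 15 rose with EET, 2 fell and 16 were not called. The test was edgeR's quasi-likelihood test with Benjamini-Hochberg adjustment over all 16097 genes, a gene being called at an adjusted p under 0.05. Among all genes tested 24.6% rose and 23.3% fell. The median log2 fold change of the 33 was 0.33, beside 0.005 over all genes tested. In 19 of the 33 every EET library lay above every control, which was true of 29.6% of all genes, and in 2 every EET library lay below, which was true of 28.0%. The other 12 overlapped. The 15 that rose were Myh3, Myl1, Myl4, Mylpf, Tnnt1, Tnnt2, Tnnt3, Tnni2, Acta1, Actn3, Atp2a1, Cav3, Chrna1, Chrng and Ckm. The 2 that fell were Ttn and Neb, which have the longest mRNAs of the group.

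Fold changes in these libraries followed mRNA length, and the members were part of it. Over the 33 members the Spearman correlation between mRNA length and log2 fold change was −0.644, and over 13802 protein-coding genes it was −0.685. Both are correlations across genes within the same 6 libraries, which are not independent replicates. Of the 13 members with an mRNA under 1500 bases 9 rose and 0 fell, in a class where 71.7% of protein-coding genes rose and 1.0% fell. Of 11 members of 1500 to 5000 bases 5 rose and 0 fell, where 25.1% of protein-coding genes rose and 17.1% fell. Of the 9 members of 5000 bases or more 1 rose and 2 fell, where 2.94% rose and 66.8% fell. Within the controls the trend also differed between libraries, with a slope of 0.116 per doubling of length in control 1 and of 0.236 and 0.243 in control 2 and 3, on the log2 scale and relative to the mean of all 6. In EET 1 to 3 the same slope was −0.270, −0.215 and −0.111. What produced the trend was not tested.

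A second fit therefore took out, library by library, the dependence on mRNA length and GC content before testing, and both fits are given for every member the results turn on. With the trend removed 9 members rose, 1 fell and 23 were not called, where 15.7% of all genes rose and 16.2% fell. The median log2 fold change of the 33 was then 0.23, beside −0.016 over all genes. The members that rose in both fits were Myh3, Tnni2, Actn3, Atp2a1, Chrna1, Chrng and Ckm, 7 in all. The 8 that rose only as counted, Myl1, Myl4, Mylpf, Tnnt1, Tnnt2, Tnnt3, Acta1 and Cav3, all have mRNAs under 1500 bases. Neb was no longer called, Ttn changed from lower to higher, Ryr1 became higher and Tnnc1 lower. The remaining 14 tested members were called in neither fit.

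**Figure D3:**
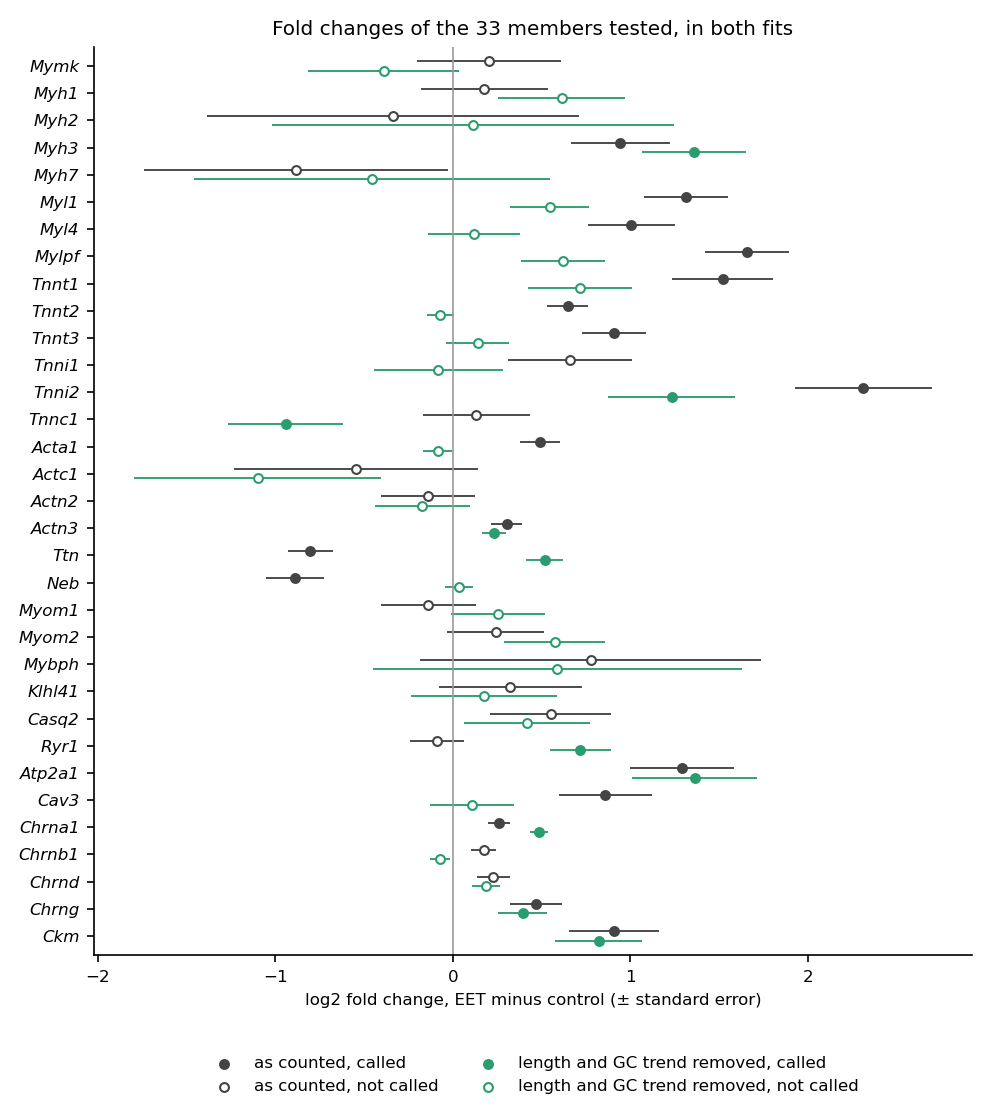
log2 fold change (EET minus control, ± standard error, 3 libraries per group) of the 33 members tested, as counted in grey and after removal of the length and GC trend in green, filled where the adjusted p was under 0.05. The light chains, troponin T genes and Acta1 move towards 0 when the trend is removed, Ttn and Neb move up, and Myh3, Atp2a1, Chrna1, Chrng, Ckm, Actn3 and Tnni2 stay filled and above 0 in both.

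**Figure D4:**
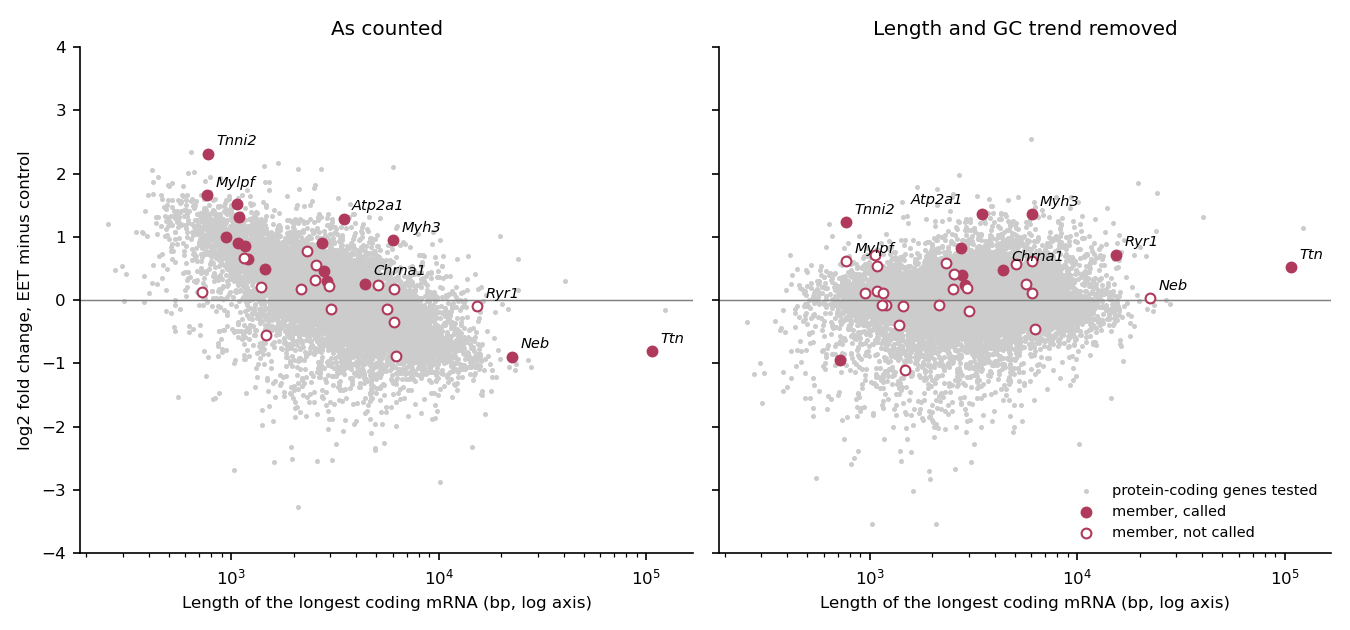
log2 fold change (EET minus control) against the length of the longest coding mRNA (bases, log axis), as counted on the left and after removal of the length and GC trend on the right, for protein-coding genes tested (grey) and for the 33 members (filled where called). On the left short members lie mostly above 0 and Neb and Ttn below, and on the right the slope is gone.

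The genes of cell fusion were barely present in either group. Mymk, the membrane protein that makes myoblasts fuse (chromosome 2, 27061636 to 27072179, minus strand in GENCODE M21 on GRCm38, the build of all coordinates below), was at 0.683, 0.429 and 0.70 CPM in the controls and 0.570, 0.832 and 0.683 CPM with EET. Its groups overlapped and it was not called (log2 fold change 0.20 ± 0.407, adjusted p = 0.717). Mymx, its partner, had 2, 1 and 0 counts in the controls and 0, 2 and 2 with EET, too few to test. At this depth no difference in either gene was detectable.

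Of the myosin heavy chains, the motors of the thick filament, only the embryonic form was called in the 4 that could be tested. Myh3, the embryonic heavy chain (chromosome 11, 67078300 to 67102291, plus strand), was at 1.10, 0.991 and 0.890 CPM in control 1 to 3 and 1.74, 1.73 and 2.30 CPM in EET 1 to 3. Every EET library was above every control, and Myh3 rose as counted (log2 fold change 0.94 ± 0.280, adjusted p = 0.0115) and with the trend removed (1.36 ± 0.291, adjusted p = 0.00118). Its mRNA has 6031 bases, in the length class where 2.94% of protein-coding genes rose. Without EET 3 the adjusted p as counted was 0.0534. Myh8, the perinatal chain, had no count in the controls and 2, 3 and 4 counts in EET 1 to 3, which is too few to test, and 3 counts over the control libraries together correspond to 0.0281 CPM. Myh1, an adult fast chain, was at 1.16, 0.991 and 1.21 CPM in control 1 to 3 and 0.713, 1.86 and 1.24 CPM in EET 1 to 3 and was not called (log2 fold change 0.18 ± 0.358, adjusted p = 0.717). Its groups overlapped, with the lowest and the highest of the 6 values both among the EET libraries, and without EET 2, the highest, the log2 fold change was −0.19. Myh2, the chain of fast oxidative fibres, had no count in control 1 and EET 1 and at most 0.448 CPM elsewhere (log2 fold change −0.34 ± 1.05, adjusted p = 0.822). Myh7, the slow and cardiac beta chain, was at 1.63, 1.74 and 1.84 CPM in control 1 to 3 and 1.82, 0 and 0.963 CPM in EET 1 to 3. Its EET libraries were spread from the control level to 0 (log2 fold change −0.88 ± 0.857, adjusted p = 0.451), in the same order as the heart marker Myh6, and without EET 2 the log2 fold change was −0.31. Close copies limit these rows, because 14.7% of the 100-base stretches of Myh1 and 11.2% of those of Myh2 occur in another gene, mainly each other, and 13.9% of those of Myh7 occur in Myh6 or in antisense transcripts.

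All 3 myosin light chains rose as counted and none was called once the trend was removed. Myl1, the essential light chain of fast muscle, was at 1.89, 1.45 and 1.18 CPM in control 1 to 3 and 3.99, 4.06 and 3.23 CPM in EET 1 to 3 (log2 fold change 1.31 ± 0.235, adjusted p = 0.000300). Myl4, the embryonic and atrial essential light chain, was at 1.34, 1.26 and 1.08 CPM in control 1 to 3 and 2.37, 2.66 and 2.39 CPM in EET 1 to 3 (log2 fold change 1.00 ± 0.245, adjusted p = 0.00330). Mylpf, the regulatory light chain of fast muscle whose promoter is printed above, was at 1.18, 2.12 and 1.49 CPM in control 1 to 3 and 6.02, 4.35 and 4.78 CPM in EET 1 to 3 (log2 fold change 1.66 ± 0.238, adjusted p = 4.87e-05). In each of the 3 every EET library was above every control. Their mRNAs have 1082, 943 and 766 bases, in the class where 71.7% of protein-coding genes rose. With the trend removed the values were 0.55 ± 0.224, adjusted p = 0.0694 for Myl1, 0.12 ± 0.258, adjusted p = 0.768 for Myl4 and 0.62 ± 0.237, adjusted p = 0.0512 for Mylpf. Mylpf lay close to the threshold in that fit and was called without control 2 (adjusted p = 0.0176), without EET 2 (0.0419), with a replicate block (0.0463) and with a second-degree trend (0.041). Myl1 was called in it without control 1 (adjusted p = 0.0468). A pseudogene, Mylf-ps, shares 9.36% of the 100-base stretches of Myl1.

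Troponin is the calcium switch of the thin filament, with a T subunit that binds tropomyosin, an inhibitory I subunit and a calcium-binding C subunit. Of the 6 troponin genes tested 4 rose as counted and 0 fell, and in the second fit 1 rose and 1 fell. The mRNAs of these 6 have 721 to 1200 bases, in the class where 71.7% of protein-coding genes rose as counted and 1.0% fell. In the second fit 15.7% of all genes rose and 16.2% fell. Tnnt2, the cardiac and embryonic T subunit and the most abundant of them, was at 36.5, 35.4 and 28.8 CPM in control 1 to 3 and 61.4, 50.6 and 45.9 CPM in EET 1 to 3. It rose as counted (log2 fold change 0.65 ± 0.114, adjusted p = 0.000292) with no overlap, and its value with the trend removed was −0.0692 ± 0.0761, adjusted p = 0.535. Tnnt3, the fast T subunit, was at 5.26, 4.37 and 3.69 CPM in control 1 to 3 and 6.59, 9.47 and 9.04 CPM in EET 1 to 3 and also rose without overlap (log2 fold change 0.91 ± 0.181, adjusted p = 0.000705). Tnnt1, the slow T subunit, was at 0.841, 0.723 and 1.27 CPM in control 1 to 3 and 3.05, 2.24 and 2.80 CPM in EET 1 to 3 (log2 fold change 1.52 ± 0.285, adjusted p = 0.000439). All 3 lost their call with the trend removed, where Tnnt3 was at 0.14 ± 0.178, adjusted p = 0.594 and Tnnt1 at 0.72 ± 0.295, adjusted p = 0.0699. Without control 3 Tnnt1 was called in that fit (adjusted p = 0.0246).

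Tnni2, the fast inhibitory subunit (chromosome 7, 142441808 to 142444410, plus strand), had the largest fold change of the 33 members as counted. It was at 0.315, 0.964 and 0.509 CPM in control 1 to 3 and 3.22, 3.87 and 1.86 CPM in EET 1 to 3, so that even the lowest EET library lay well above the highest control. It rose as counted (log2 fold change 2.31 ± 0.387, adjusted p = 0.000188) and with the trend removed (1.23 ± 0.358, adjusted p = 0.0126). As counted and without EET 2 the log2 fold change was 2.09 (adjusted p = 0.00252). In the second fit the adjusted p was 0.0606 without control 1, 0.0586 without control 3 and 0.0750 without EET 2. Tnni1, the slow inhibitory subunit, was at 0.762, 0.830 and 0.636 CPM in the controls and 1.43, 0.896 and 1.21 CPM with EET, without overlap, and was not called (log2 fold change 0.66 ± 0.347, adjusted p = 0.135). Tnnc1, the C subunit of slow and heart muscle, was at 2.94, 1.98 and 3.47 CPM in control 1 to 3 and 4.16, 1.70 and 3.29 CPM in EET 1 to 3. It was not called as counted (log2 fold change 0.13 ± 0.299, adjusted p = 0.747), and without EET 2, where it was lowest, the log2 fold change was 0.42. Tnnc1, with an mRNA of 721 bases, was called lower with the length and GC trend removed (−0.94 ± 0.325, adjusted p = 0.0427). That call was lost without control 1 (adjusted p = 0.0922), without control 3 (0.165), without EET 2 (0.0963) and with a second-degree trend (0.0525). Tnnc2, the fast C subunit, had 1 count in all 6 libraries together. The gene Ube2c overlaps 74% of the exon bases of Tnnc2 on the opposite strand, and whether reads were counted by strand is a point on which the sources used here are silent.

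Of the 4 actins and alpha-actinins, 2 rose as counted and 1 of these also with the trend removed, where 24.6% and 15.7% of all genes rose. Acta1, the skeletal alpha-actin of the thin filament, was at 37.1, 33.9 and 26.8 CPM in control 1 to 3 and 47.4, 48.9 and 41.2 CPM in EET 1 to 3. It rose as counted (log2 fold change 0.49 ± 0.113, adjusted p = 0.00227), and the value with the trend removed was −0.0851 ± 0.0802, adjusted p = 0.460. Actn3, the Z-disc alpha-actinin of fast fibres (chromosome 19, 4861216 to 4877909, minus strand), was at 40.3, 35.3 and 34.7 CPM in control 1 to 3 and 44.0, 44.3 and 47.7 CPM in EET 1 to 3. This small difference was called in both fits (log2 fold change 0.30 ± 0.0861, adjusted p = 0.00889, and 0.23 ± 0.0689, adjusted p = 0.0129 with the trend removed), with no overlap between groups. Without control 2 or control 3 its adjusted p as counted was 0.0537 and 0.0566, and in the second fit it was 0.0622 and 0.0675, and 0.0525 without EET 3. Actn2, an alpha-actinin of heart and skeletal muscle, was at 1.63, 2.36 and 1.88 CPM in the controls and 2.20, 1.6 and 1.52 CPM with EET. It was not called (log2 fold change −0.14 ± 0.263, adjusted p = 0.703).

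Actc1, the cardiac alpha-actin that embryonic skeletal muscle also makes, varied more among the EET libraries than between the groups. It was at 8.04, 6.91 and 8.97 CPM in control 1 to 3 and 10.2, 1.41 and 4.72 CPM in EET 1 to 3. EET 1 lay above all controls and EET 2 and EET 3 below them, the order that Myh6 and Myl2 also showed. It was not called (log2 fold change −0.54 ± 0.688, adjusted p = 0.579). Without EET 1 it was called lower (log2 fold change −1.37, adjusted p = 0.00877), and without EET 2 the log2 fold change was −0.093. The part of heart mRNA in the values of Actc1, Myh7 and Tnnc1 was not tested.

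The giant proteins were the members that fell. Titin (Ttn), the molecular spring from Z-disc to M-band (chromosome 2, 76703980 to 76982547, minus strand), was at 39.7, 58.7 and 54.0 CPM in control 1 to 3 and 29.0, 26.6 and 31.7 CPM in EET 1 to 3. Nebulin (Neb), which runs along the thin filament (chromosome 2, 52136647 to 52378474, minus strand), was at 35.0, 55.1 and 57.1 CPM in control 1 to 3 and 23.3, 26.4 and 29.6 CPM in EET 1 to 3. In both genes every EET library was below every control, and control 1 was the lowest of the controls. Both fell as counted, Ttn by 0.80 ± 0.13 (adjusted p = 0.000129) and Neb by 0.89 ± 0.17 (adjusted p = 0.000881) on the log2 scale. With mRNAs of 106824 and 22489 bases they lie in the class where 66.8% of protein-coding genes fell. With the trend removed Neb was at 0.0365 ± 0.0787, adjusted p = 0.768 and Ttn was called higher (0.52 ± 0.104, adjusted p = 0.00227). Ttn lies beyond nearly all other genes in length, so its corrected value depends on how the trend is drawn. A second-degree curve gave a log2 fold change of −0.98 for Ttn (adjusted p = 0.111) and −0.23 for Neb, where neither was called.

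No other member of the giant, M-band and associated proteins was called in either fit. Myom1, the myomesin that crosslinks thick filaments at the M-band, was at 2.00, 1.55 and 2.73 CPM in the controls and 1.6, 2.05 and 2.05 CPM with EET (log2 fold change −0.14 ± 0.267, adjusted p = 0.706). Myom2, its fast fibre relative, was at 1.16, 1.34 and 1.84 CPM in the controls and 1.74, 1.73 and 1.65 CPM with EET (log2 fold change 0.24 ± 0.274, adjusted p = 0.504). Klhl41, which stabilises nebulin, was at 0.998, 0.482 and 0.604 CPM in the controls and 0.884, 1.09 and 0.652 CPM with EET (log2 fold change 0.33 ± 0.405, adjusted p = 0.547). In these 3 the groups overlapped. Mybph, myosin-binding protein H, ranged from 0 to 0.80 CPM (log2 fold change 0.78 ± 0.960, adjusted p = 0.544), and the gene Adora1 on the opposite strand overlaps 49.9% of its exon bases. Smpx, a small protein of muscle, had 0, 2 and 0 counts in the controls and 8, 10 and 0 with EET and was not tested.

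Among the genes of calcium handling and the muscle membrane, 2 of 4 rose as counted and 2 of 4 with the trend removed, with Atp2a1 in both. Over all genes tested 24.6% rose as counted and 15.7% with the trend removed. Atp2a1, the fast calcium pump of the sarcoplasmic reticulum (chromosome 7, 126445858 to 126463108, minus strand), was at 2.68, 2.89 and 3.18 CPM in control 1 to 3 and 4.19, 11.2 and 6.09 CPM in EET 1 to 3. Every EET library was above every control, with EET 2 the highest. It rose as counted (log2 fold change 1.29 ± 0.293, adjusted p = 0.00266) and with the trend removed (1.36 ± 0.352, adjusted p = 0.0205). Without EET 2 the log2 fold change as counted was 0.82 and the adjusted p 0.0111. In the second fit the adjusted p was 0.0985, 0.105 and 0.0780 without control 1, 2 and 3 in turn. Rabep2, on the opposite strand, overlaps 21.9% of the exon bases of Atp2a1, and 14% of its 100-base stretches occur in another gene.

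Ryr1, the calcium release channel of skeletal muscle (chromosome 7, 29003344 to 29125179, minus strand), was at 8.12, 8.73 and 6.74 CPM in control 1 to 3 and 7.64, 8.29 and 6.28 CPM in EET 1 to 3. The groups overlapped and it was not called as counted (log2 fold change −0.0896 ± 0.153, adjusted p = 0.669), while with the trend removed it was called higher (0.72 ± 0.172, adjusted p = 0.00358). Its mRNA has 15358 bases. Cav3, the caveolin of muscle membranes, was at 2.26, 1.69 and 1.46 CPM in control 1 to 3 and 4.45, 2.85 and 2.55 CPM in EET 1 to 3 and rose as counted (log2 fold change 0.86 ± 0.263, adjusted p = 0.0138). That call did not hold without control 2 (adjusted p = 0.0515), control 3 (0.0642) or EET 1 (0.104), and with the trend removed Cav3 was at 0.11 ± 0.238, adjusted p = 0.771. Casq2, the calcium-binding protein of slow and heart reticulum, was at 0.657, 0.938 and 0.954 CPM in the controls and 0.969, 1.22 and 1.55 CPM with EET, with no overlap and no call (log2 fold change 0.55 ± 0.342, adjusted p = 0.205).

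The acetylcholine receptor genes include the 2 most abundant members, Chrna1 and Chrnb1. In all 4 subunits among the members every EET library lay above every control, which was true of 29.6% of all genes tested. As counted 2 of the 4 were called, Chrna1 and Chrng. Chrna1, the alpha subunit that binds acetylcholine (chromosome 2, 73563215 to 73580338, minus strand), was at 646, 645 and 635 CPM in control 1 to 3 and 794, 761 and 750.2 CPM in EET 1 to 3. The controls lay close together, and the mean went from 642 ± 5.91 to 769 ± 22.9 CPM (SD, n = 3 each). Chrna1 rose as counted (log2 fold change 0.26 ± 0.0617, adjusted p = 0.00266) and with the trend removed (0.48 ± 0.0498, adjusted p = 6.15e-07), and it was called in both fits whichever library was left out. Chrng, the gamma subunit of the embryonic receptor (chromosome 1, 87204657 to 87212694, plus strand), was at 7.70, 7.04 and 5.69 CPM in control 1 to 3 and 10.4, 8.70 and 9.20 CPM in EET 1 to 3 and rose in both fits (log2 fold change 0.47 ± 0.147, adjusted p = 0.0162, and 0.39 ± 0.137, adjusted p = 0.0330 with the trend removed). As counted its adjusted p was 0.0895 without control 3 and 0.0680 without EET 1. In the second fit it was 0.0607, 0.157 and 0.128 without control 2, control 3 and EET 1.

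The other 2 receptor subunits among the members lay at the threshold as counted, and their calls depended on the settings. With only genes over 1 CPM in 3 libraries tested, both were called higher (adjusted p = 0.0467 for Chrnb1 and 0.0492 for Chrnd), so that 17 members rose. Both were also called with a filter of over 5 CPM (0.0376 and 0.0411) and with a replicate block (0.0193 and 0.0265). Chrnb1, the beta subunit, was at 97.8, 93.1 and 94.3 CPM in control 1 to 3 and 101, 114 and 107 CPM in EET 1 to 3 (log2 fold change 0.17 ± 0.0702, adjusted p = 0.0531). It was called higher without EET 1 (adjusted p = 0.0329) and without EET 3 (0.0498), but with the trend removed its sign was the opposite (−0.0722 ± 0.0553, adjusted p = 0.352). Chrnd, the delta subunit, was at 28.8, 30.1 and 26.3 CPM in control 1 to 3 and 32.3, 31.1 and 36.4 CPM in EET 1 to 3 (log2 fold change 0.23 ± 0.0930, adjusted p = 0.0553, and 0.19 ± 0.0791, adjusted p = 0.0809 with the trend removed). Chrnd and Chrng are neighbours on chromosome 1, on the same strand and 4587 bases apart. Summed over the 4 subunits, the receptor took 761 to 779.9 CPM in the controls and 902 to 938 CPM with EET. This 1 receptor makes up most of the counts of the 37 genes. All members together took 0.105 ± 0.000682% of counts in the controls and 0.116 ± 0.00116% with EET (SD, n = 3 each), and the members outside the receptor 0.0257 ± 0.00130% and 0.0263 ± 0.000502%. The members outside the receptor, without Ttn and Neb, were also set against the counts of protein-coding genes with mRNAs under 12 kb. They came to 0.0162 ± 0.00114% of these in the controls and 0.0216 ± 0.00106% with EET. Ryr1, with an mRNA of 15358 bases, is in the members' sum though not among the genes it is set against. Ttn and Neb are the 2 members that fell as counted, and the length trend was not removed from this share.

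Ckm, the creatine kinase of muscle that regenerates ATP in the sarcomere (chromosome 7, 19404776 to 19422841, plus strand), was at 2.34, 2.12 and 2.38 CPM in control 1 to 3 and 3.54, 6.21 and 3.11 CPM in EET 1 to 3. Every EET library was above every control, and as with Atp2a1 the highest was EET 2. It rose as counted (log2 fold change 0.91 ± 0.252, adjusted p = 0.00775) and with the trend removed (0.82 ± 0.244, adjusted p = 0.0139). Without EET 2 the log2 fold change was 0.55 (adjusted p = 0.0751) as counted and 0.45 (adjusted p = 0.186) with the trend removed, and without control 2 the latter adjusted p was 0.0605. Of 9 markers of mature fast fibres, among them the members Ckm, Actn3, Myh1 and Myh2, 4 rose as counted and 0 fell. Among all genes 24.6% rose and 23.3% fell. In the second fit 2 of the markers rose and 0 fell, where 15.7% of all genes rose and 16.2% fell. Those not called as counted were Myh1, Myh2, Myh4, Mb and Mybpc2. The summed level of the 9 went from 42.6 to 49.8 CPM in the controls to 59.5 to 80.0 CPM with EET. Actn3 alone was at 34.7 to 40.3 CPM in the controls, and the highest sum, that of EET 2, includes Myh4 at 19.1 CPM. The non-members that rose were Pvalb, the calcium buffer of fast fibres, at 1.47, 0.911 and 0.318 CPM in control 1 to 3 and 3.22, 2.5 and 1.62 CPM in EET 1 to 3 (log2 fold change 1.42 ± 0.417, adjusted p = 0.0118), and Casq1, the calsequestrin of fast fibres, at 0.552, 0.429 and 0.572 CPM in control 1 to 3 and 1.37, 1.28 and 1.09 CPM in EET 1 to 3 (log2 fold change 1.26 ± 0.358, adjusted p = 0.00868). Neither was called in the second fit. Myh4 was not called (log2 fold change 2.10 ± 0.766, adjusted p = 0.0852). The part of RNA from fibres or fibre fragments in the values of Atp2a1, Ckm and Tnni2 was not tested.

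Several members are neighbours in the genome. Tnni2 and Tnnt3 are 54426 bases apart on chromosome 7. Both rose as counted, and of the pair only Tnni2 was called with the trend removed. Tnni1 and Tnnt2 are 25365 bases apart on chromosome 1. Their log2 fold changes as counted, 0.66 ± 0.347 and 0.65 ± 0.114, were alike in size, though only that of Tnnt2 was called. Both mRNAs are under 1500 bases, where the median log2 fold change of protein-coding genes was 0.745. With the trend removed they were at −0.0818 and −0.0692 and neither was called. The heavy chains Myh3, Myh2, Myh1 and Myh8 follow each other on chromosome 11 with gaps of 68736, 2535 and 52549 bases, and of these Myh3 alone was called. The differences between neighbours were not tested.

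Other genes of the same structures, in lists beside the 37, were called about as often as genes in general. Over the 7 lists together 22 of 99 tested genes rose and 25 fell as counted, and 15 rose and 15 fell in the second fit. Among all genes tested 24.6% rose and 23.3% fell as counted, and 15.7% rose and 16.2% fell in the second fit. The lists' median log2 fold change as counted was 0.033. Of 27 further filament and Z-disc genes 3 rose and 4 fell as counted, and 3 rose and 5 fell in the second fit. Des, the intermediate filament protein desmin, rose from 659, 567 and 556 CPM to 943, 872 and 778 CPM (log2 fold change 0.54 ± 0.0842, adjusted p = 9.54e-05, and 0.51 ± 0.0674, adjusted p = 0.000153 with the trend removed). Xirp1, a repeat protein of the attachment sites, fell from 29.7, 30.1 and 30.8 CPM to 18.9, 15.1 and 19.1 CPM (log2 fold change −0.77 ± 0.102, adjusted p = 2.69e-05, and −0.38 ± 0.0848, adjusted p = 0.00155). Csrp3, a Z-disc LIM protein that heart also makes, was at 1.21, 1.02 and 0.954 CPM in control 1 to 3 and 1.08, 0.256 and 0.435 CPM in EET 1 to 3. It was lowest in EET 2 like the heart markers, and EET 3 also lay below every control. Csrp3 was not called as counted (log2 fold change −0.83 ± 0.462, adjusted p = 0.161) and was called lower in the second fit (−1.76 ± 0.445, adjusted p = 0.00452).

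Of 15 further genes of excitation-contraction coupling 5 rose and 3 fell, and in the second fit 3 rose and 1 fell. Jsrp1, a junctional protein of the sarcoplasmic reticulum, rose from 11.1, 9.80 and 10.7 CPM to 28.1, 29.2 and 24.7 CPM (log2 fold change 1.37 ± 0.104, adjusted p = 7.66e-07, and 0.53 ± 0.0882, adjusted p = 9.78e-05 with the trend removed). Atp2a2, the calcium pump of slow muscle and of cells in general, fell from 786, 848 and 838 CPM to 547, 571 and 643 CPM in both fits (log2 fold change −0.49 ± 0.0730, adjusted p = 6.65e-05, and −0.24 ± 0.0436, adjusted p = 0.000230), the opposite direction from Atp2a1. Of 7 further genes of the neuromuscular junction 1 rose and 3 fell as counted. In the second fit 2 rose, Rapsn and Ncam1, and 1 fell, Musk. Chrne, a receptor subunit on that list and not a member, was too low to test. It had 0, 0 and 1 counts in control 1 to 3 and 1, 0 and 2 in EET 1 to 3. Rapsn, which clusters the acetylcholine receptor, rose from 32.7, 24.5 and 27.3 CPM to 50.6, 50.0 and 45.4 CPM (log2 fold change 0.79 ± 0.104, adjusted p = 2.32e-05, and 0.29 ± 0.0731, adjusted p = 0.00456). Agrn, the nerve and muscle signal for that clustering, fell from 113, 116 and 113 CPM to 73.3, 74.8 and 81.9 CPM as counted (log2 fold change −0.57 ± 0.0698, adjusted p = 1.33e-05) and was not called with the trend removed (−0.0579 ± 0.0517, adjusted p = 0.432).

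Of 12 genes of muscle energy metabolism 2 rose and 1 fell, and of 9 muscle chaperones and assembly factors 4 rose and 0 fell as counted. In the second fit 0 rose and 2 fell of the first list, and 1 rose and 1 fell of the second. Eno3, the muscle enolase, was at 288, 261 and 258 CPM in the controls and 437, 392 and 385 CPM with EET (log2 fold change 0.59 ± 0.0726, adjusted p = 1.39e-05), and Aldoa, the muscle aldolase, at 1204, 1100.5 and 1014 CPM in the controls and 1561, 1442 and 1334 CPM with EET (log2 fold change 0.39 ± 0.0789, adjusted p = 0.000873). With the trend removed Eno3 was not called and Aldoa was called lower (−0.14 ± 0.0417, adjusted p = 0.0158), without that call when control 2 (adjusted p = 0.118) or EET 2 (0.0865) was left out. Cryab, a small heat shock protein of the Z-disc, was at 192, 168 and 159 CPM in the controls and 269, 233 and 214 CPM with EET and turned from higher (log2 fold change 0.46 ± 0.0908, adjusted p = 0.000686) to lower (−0.30 ± 0.0486, adjusted p = 7.02e-05). Hspb2, another small heat shock protein of muscle, was at 0.946, 0.857 and 0.922 CPM in the controls and 2.25, 1.82 and 1.12 CPM with EET (log2 fold change 0.93 ± 0.321, adjusted p = 0.0261), and its adjusted p was between 0.0629 and 0.138 when control 2, control 3, EET 1 or EET 2 was left out. Of 15 genes of myoblast adhesion and fusion 1 rose and 9 fell as counted, and 2 rose and 4 fell with the trend removed. The median mRNA length of this list was 4843 bases. As counted 66.8% of protein-coding genes of 5000 bases or more fell, and 17.1% of those of 1500 to 5000 bases. Dock1 and Myof, with mRNAs of 6807 and 7094 bases, lie in the longest class. Dock1, which remodels actin for fusion, went from 92.0, 109 and 101 to 49.0, 50.9 and 63.1 CPM (log2 fold change −0.89 ± 0.0974, adjusted p = 6.66e-06, and −0.39 ± 0.0584, adjusted p = 3.28e-05 with the trend removed). Myof, a ferlin of fusing membranes, went from 503, 595 and 569.8 to 331, 314 and 377 CPM (log2 fold change −0.71 ± 0.0827, adjusted p = 9.54e-06, and −0.18 ± 0.0444, adjusted p = 0.00304).

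The regulators upstream of these genes moved in both directions, with 6 of 14 higher and 5 lower as counted and 4 higher and 1 lower with the trend removed. Myog, at 0.893, 0.482 and 0.668 CPM in the controls and 1.08, 1.66 and 1.43 CPM with EET, rose as counted (log2 fold change 1.02 ± 0.357, adjusted p = 0.0278) at a level of about 1 CPM and was not called with the trend removed (0.50 ± 0.365, adjusted p = 0.324). As counted its adjusted p was 0.113, 0.0680, 0.104 and 0.0512 without control 2, control 3, EET 2 and EET 3. Myod1, at 1025, 944 and 962 CPM in the controls and 1148, 1155 and 1175 CPM with EET, turned from higher (log2 fold change 0.25 ± 0.0634, adjusted p = 0.00470) to lower (−0.15 ± 0.0458, adjusted p = 0.0133). The lower call of Myod1 was lost without control 2, control 3, EET 1 and EET 2, where the adjusted p ran from 0.0599 to 0.104. Mef2c, at 19.2, 18.7 and 19.1 CPM in the controls and 12.8, 12.5 and 13.5 CPM with EET, fell as counted (log2 fold change −0.55 ± 0.0977, adjusted p = 0.000274) and was not called in the second fit, as was Pax7 at 109, 116 and 118 CPM in the controls and 81.9, 85.2 and 83.2 CPM with EET (log2 fold change −0.45 ± 0.0671, adjusted p = 6.34e-05). Id1 and Id3, which block the E-box factors, rose in both fits. Id1 went from 189, 168 and 168 to 355, 343 and 305 CPM (log2 fold change 0.94 ± 0.0759, adjusted p = 1.05e-06, and 0.20 ± 0.0426, adjusted p = 0.00124 with the trend removed), and Id3 from 278, 242 and 233 to 457, 463 and 423 CPM (log2 fold change 0.83 ± 0.0761, adjusted p = 1.73e-06, and 0.17 ± 0.0456, adjusted p = 0.00640).

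Markers of other cell types were also examined, first as counted, where 24.6% of all genes rose and 23.3% fell. Of 8 endothelial markers 6 fell and 0 rose, with a summed level of 285 to 304 CPM in the controls and 166 to 187 CPM with EET. Of 6 macrophage markers 2 fell and 0 rose, with sums of 281 to 313 CPM in the controls and 352, 183 and 173 CPM in EET 1 to 3. Of 6 fibro-adipogenic markers 2 fell, of 5 Schwann cell markers 1 rose and 3 fell, and of 9 markers of smooth muscle and pericytes 1 rose and 3 fell. Of 9 markers of the stem cell and myoblast 4 rose and 2 fell, with sums of 3125 to 3386 CPM in the controls and 3546 to 3616 CPM with EET. In the second fit 7 endothelial, 2 macrophage, 3 fibro-adipogenic, 2 Schwann cell and 3 smooth muscle and pericyte markers fell and 0 rose in these 5 lists, and of the stem cell and myoblast markers Des rose and Myod1 fell. Among all genes 15.7% rose and 16.2% fell in that fit. The part of other cell types in the members' levels was not tested. Library totals ran from 30371291 to 37243882 counts, libraries of a group differed by more than sampling noise (chi-square per gene of at least 5.94 for each pair), and among counts of 11 to 50 the even ones made up 61.3 to 62.1% in controls and 65.0 to 65.6% with EET. Whether the 2 reads of a pair were counted apart is not stated in the sources used here, and where they were, a printed count and the level of 3 counts stand for fewer fragments than counts. With counts divided by 2, 31 members could be tested and Chrnb1 was added to those called.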

How the data were processed

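Poly(A) RNA of 3 control and 3 EET cultures was sequenced as paired reads from libraries with a dUTP-marked second strand, per the labels' protocols. The authors deposited raw whole-number counts per gene symbol, with no normalization. The submitters' processing notes name FastQC, cutadapt, DESeq2 and the build GRCm38, while the aligner, counter and strand setting are not stated in the sources used here. Groups and replicate numbers came from the sample titles.

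The counts were tested with edgeR 4.0.16 under R 4.3.3 (filterByExpr, then TMM factors, robust glmQLFit and glmQLFTest), EET against control, adjusted by Benjamini-Hochberg over 16097 genes and called at 0.05. The ± of a log2 fold change is its standard error. The second fit added an offset from a first-degree loess (span 0.3), fitted per library, of the difference from the 6-library mean on log2 mRNA length and GC percent of protein-coding genes. The pipeline was tested on simulated data. Alternatives were other scalings, filters of over 1 or 5 CPM in 3 libraries or none, DESeq2 1.42.0, limma-voom (limma 3.58.1), counts divided by 2, a replicate block and leaving out each library. Added after seeing the data were the left-out libraries in the second fit and a second-degree loess.

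Gene models are GENCODE M21, with 53292 rows matched by symbol, and mRNA length is that of the longest coding transcript. Promoters are RefSeq windows. All 37 members are named, with the 2 genes of smallest p in each other list and Myod1, Myog, Mef2c and Pax7. Csrp3, Myl2, Mybpc2, Myh4, Myh6, Nppa, Mybpc3, Myl7, Nkx2-5, Pvalb, Casq1, Mb and Chrne were named after their values were seen. Members and lists were chosen with earlier results of these data known.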

Additional observations from a re-analysis of the deposited data

How the results depend on the processing

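The 33 members stayed on the same side of the threshold with RLE scaling, library totals, no filter and DESeq2. With limma-voom Mybph changed sign, at −0.19. Of the 31 tested on halved counts, Chrnb1 was added to the calls. With over 1 CPM required in 3 libraries 27 members were tested and 17 rose, and with over 5 CPM 12 were tested and 8 rose, Chrnb1 and Chrnd being added to the calls in both. With the length and GC trend removed 2524 genes rose in place of 3967, and 9 members rose and 1 fell in place of 15 and 2. The sign then changed for the following genes, each with its log2 fold change and, in brackets, that of the same fit with a replicate block: Mymk −0.39 (−0.39), Myh2 0.11 (0.0180), Tnnt2 −0.0692 (−0.0681), Tnni1 −0.0818 (−0.0978), Tnnc1 −0.94 (−0.99), Acta1 −0.0851 (−0.0797), Ttn 0.52 (0.51), Neb 0.0365 (0.0415), Myom1 0.26 (0.28), Ryr1 0.72 (0.72), Chrnb1 −0.0722 (−0.0747), Aldoa −0.14 (−0.14), Cryab −0.30 (−0.30), Hspb2 −0.14 (−0.15), Myod1 −0.15 (−0.16). A second-degree loess gave −0.98 for Ttn and −0.23 for Neb, and 0 members lower. The cause was not tested. 

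Leaving out each library moved the count of members higher between 12 and 15 as counted and between 6 and 8 with the trend removed, and the count of members lower in the latter fit between 0 and 1. Log2 fold changes that changed sign ran, as counted, from −0.19 to 0.47 for Myh1, from −1.91 to 0.27 for Myh2, from −0.16 to 0.42 for Tnnc1, from −0.32 to 0.0189 for Actn2, from −0.32 to 0.0932 for Myom1, from −0.46 to 2.03 for Mybph, from −0.19 to 0.0169 for Ryr1. With the trend removed they ran from −1.52 to 0.71 for Myh2, from −1.45 to 0.11 for Myh7, from −0.00557 to 0.33 for Tnnt3, from −0.18 to 0.10 for Tnni1, from −0.0571 to 0.0896 for Neb, from −0.64 to 1.80 for Mybph, from −0.0247 to 0.53 for Klhl41, from −0.11 to 0.24 for Cav3, from −0.29 to 0.0162 for Hspb2. With all 6 libraries none of these genes was called in the fit named. 

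Equal replicate numbers did not mark libraries that deviated together (correlations −0.0035, −0.050 and 0.0089 over genes), and 1 of the 6 libraries correlated best with the one of its own number, so the numbers were not taken to pair the libraries. With a replicate block 17 members rose and 2 fell as counted, Chrnb1 and Chrnd being added, and with the trend removed as well 10 rose and 1 fell. Depth limits the 13 members at 1 CPM or under, where a fold change rests on few counts, and CPM per kb of Ttn rises from 0.475 to 23.8 and of Neb from 2.18 to 16.7 when the median transcript length is used.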
